A study of Mus musculus with 10 samples.

Results

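The glucocorticoid receptor gene Nr3c1 and 9 genes that the receptor is known to act on or that set its hormone supply were followed in livers of mice lacking Etnppl and of wild-type mice. The members were Nr3c1, Fkbp5, Tsc22d3, Sgk1, Zbtb16, Mt1, Mt2, Dusp1, Hsd11b1 and Cdkn1a, taken by gene symbol from the deposited expression table. These are 10 of its 47729 genes, and all 10 lay above the filter of a mean of at least 0.5 FPKM that 12395 genes passed. FPKM divides a gene's sequenced fragments by its transcript length and by the library's mapped total, so levels can be compared between genes.

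The knockout (KO) group held 5 liver libraries from females with Etnppl knocked out in the full body, and the wild-type (WT) group held 5 from females with intact Etnppl. All of them ate chow over 8 weeks, followed by 10 weeks of a diet in which fat gave 45% of the energy, so no comparison with lean livers is possible here. Poly(A) RNA was sequenced with paired ends. The labels number the samples within a genotype without stating whether each came from its own animal, and the p-values therefore reflect only how these samples vary, which may be technical. They also give no time of day at collection.

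Glucocorticoids are adrenal steroids whose release follows the daily rhythm and rises in fasting and stress. The hormone enters the hepatocyte, binds the receptor in a complex with heat shock proteins and moves it into the nucleus, where it switches on genes of glucose production, amino acid breakdown, metal binding and growth arrest. In the liver the enzyme Hsd11b1 regenerates active hormone from its inactive form, and several targets, among them Fkbp5 and Tsc22d3, act back on the receptor or dampen inflammatory signalling.

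Etnppl itself, the phospho-lyase that breaks down phosphoethanolamine, had 7.36 to 10.19 FPKM in the KO libraries and 27.57 to 56.55 FPKM in the WT libraries (limma log2 fold change -1.99, adjusted p = 0.000387). The groups did not overlap. Depth, estimated from the steps between low FPKM values, was 21100000 to 28200000 fragments in KO libraries and 21800000 to 25200000 in WT libraries. The liver identity held in all libraries: summed FPKM of 7 hepatocyte markers was 63472 to 74559 in KO and 56307 to 68006 in WT livers. Summed macrophage markers were 197 to 300.1 FPKM in KO and 229.5 to 321 FPKM in WT livers. Endothelial markers were 126 to 153 FPKM in KO and 134 to 148 FPKM in WT livers, and markers of stellate cells and fibroblasts were 145 to 163 FPKM in KO and 150.2 to 196 FPKM in WT livers. The lymphocyte, neutrophil and adipocyte sums reached at most 8.29, 9.62 and 0.59 FPKM in KO and 12.2, 25.6 and 0.41 FPKM in WT livers.

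None of the 10 members passed the test between genotypes at an adjusted p of 0.05, against 0.0645% of all genes tested, 8 of 12395. Of those 8 genes, the 4 that were higher in KO livers made 0.0323% of all genes, and no member was among them. Nominally, with no correction for the number of genes, Tsc22d3 and Dusp1 were higher and Nr3c1 was lower in KO livers at p under 0.05. No member had such a p once KO replicate 1, WT replicate 4 or WT replicate 5 was left out, and 1 did without KO replicate 2 (Mt2) or KO replicate 3 (Nr3c1). With all libraries this is 3 of 10 members where 11.8% of all genes had such a p, 2.69% on the higher and 9.07% on the lower side. The members' estimates leaned upward, with 9 of 10 above 0 where 34.9% of all genes were, and a median log2 fold change of 0.29 where that of all genes was -0.05. No member had KO and WT ranges that were apart, as 2.79% of all genes did. The members were chosen with earlier results of these data known, so these counts are a description.

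With median-of-ratios scaling the nominal calls over all genes were 669 higher and 599 lower, where the deposited FPKM gave 334 higher and 1124 lower, and 49.8% of all genes were above 0. Under that scaling 9 of 10 members were still above 0, and their median was 0.35, where that of all genes was -0.00.

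**Figure D1:**
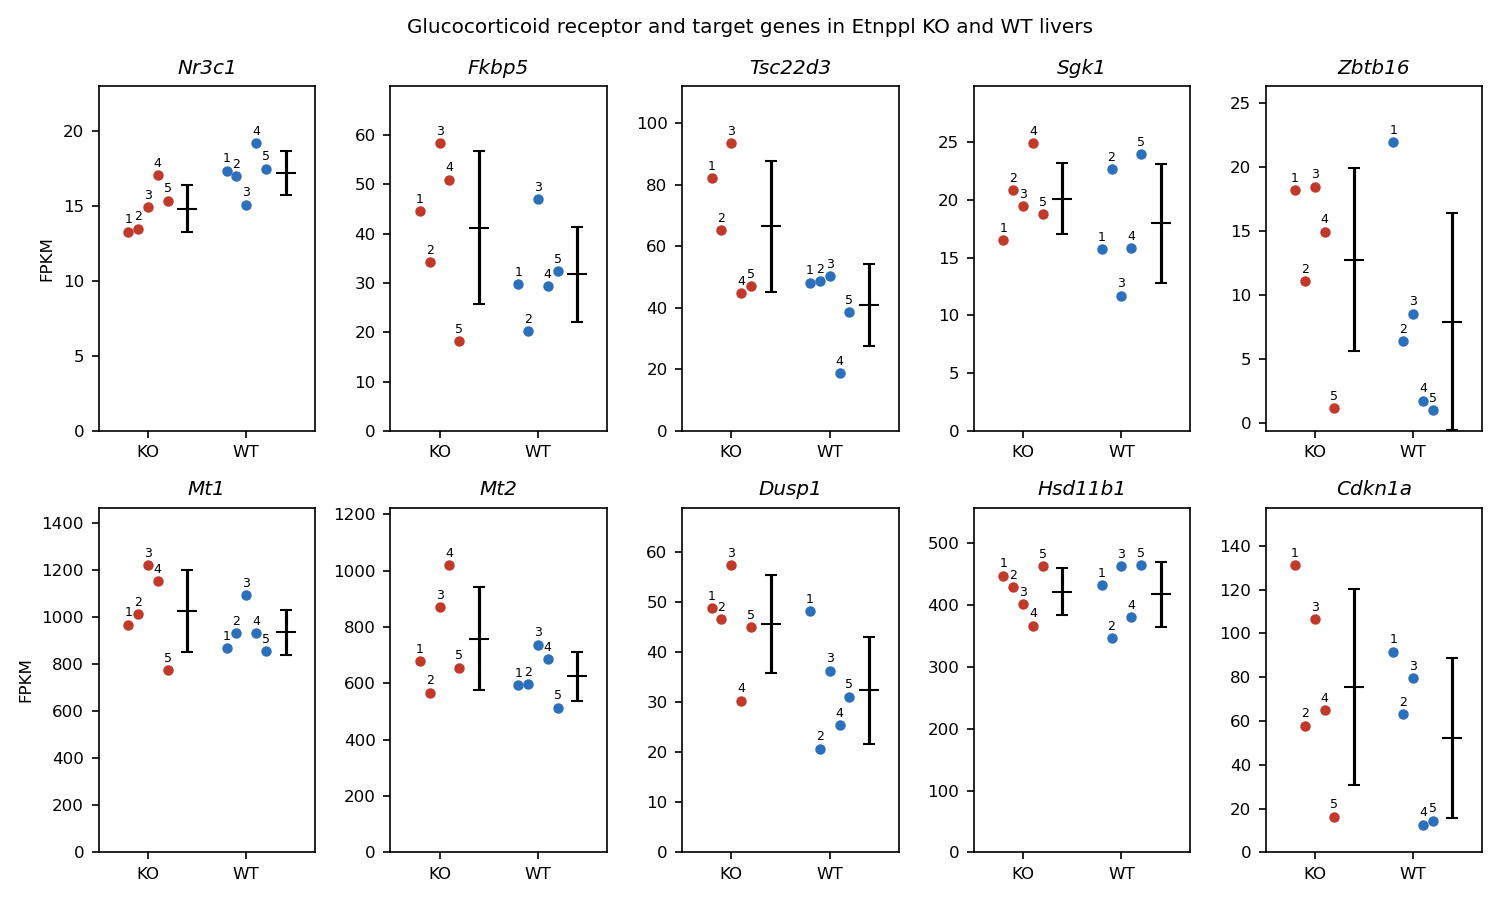
FPKM of each member (vertical axis, linear, own scale per gene) in the 5 KO libraries (red, left) and 5 WT libraries (blue, right), numbered by replicate, with mean and SD beside them as black bars. KO replicate 5 and WT replicates 4 and 5 sit near the bottom for Zbtb16 and Cdkn1a, and the groups overlap in every panel.

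By mean level over the 10 libraries, the metallothioneins Mt1 and Mt2 led with 981 and 692 FPKM, followed by Hsd11b1 with 419 FPKM. Each of these 3 was above the next in the order in 10 of 10 libraries. Cdkn1a followed with 63.8 FPKM and Tsc22d3 with 53.8 FPKM, but Cdkn1a was the higher one in only 6 of 10 libraries. Dusp1 with 39.0 FPKM and Fkbp5 with 36.5 FPKM could not be ranked either, since Dusp1 was higher in 5 of 10 libraries. Sgk1 with 19.0 FPKM, Nr3c1 with 16.0 FPKM and Zbtb16 with 10.3 FPKM came last, each above the next in 7 of 10 libraries.

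Nr3c1, the receptor itself, was the member with a lower level in KO livers. It had 13.27, 13.46, 14.90, 17.05 and 15.34 FPKM in KO replicates 1 to 5, against 17.33, 16.97, 15.06, 19.14 and 17.46 FPKM in WT replicates 1 to 5. Of the 5 KO libraries, 3 lay below every WT library and the other 2 lay within the WT range. The means were 14.8 ± 1.54 FPKM in KO and 17.2 ± 1.46 FPKM in WT livers (SD, n = 5 each). The log2 fold change, taken on log values, was -0.21 with a standard error of 0.08 and a 95% confidence interval of -0.39 to -0.03. The nominal limma p was 0.0272 and the adjusted p 0.338, and the exact two-sided permutation test over the 10 libraries gave p = 0.0476, where 0.00794 is the smallest this design allows. With median-of-ratios scaling the difference was -0.16 and no longer passed even nominally. In these bulk samples, fewer cells of a type and less RNA per cell cannot be told apart.

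Hsd11b1, which turns inactive 11-dehydrocorticosterone back into corticosterone, differed between the genotypes by less than the spread of the libraries. Its 5 KO libraries had 447.19, 428.44, 401.23, 366.57 and 462.44 FPKM, and its 5 WT libraries had 432.54, 346.19, 462.46, 380.53 and 464.70 FPKM. The KO values fell inside the WT range. Means were 421 ± 38.1 FPKM in KO and 417 ± 52.3 FPKM in WT livers, and the interval of the log2 difference, -0.19 to 0.22, leaves out changes beyond about that size in either direction.

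Of 9 other genes of corticosteroid supply and turnover tested, 5 were above 0 and 4 below, where 34.9% of all genes were above 0. None was at a nominal p under 0.05, where 11.8% of all genes were. Serpina6, which encodes the corticosteroid-binding globulin of plasma, averaged 127 ± 23.8 FPKM in KO and 147 ± 15.8 FPKM in WT livers (adjusted p = 0.499). H6pd, which supplies the cofactor of Hsd11b1 inside the endoplasmic reticulum, averaged 89.5 ± 9.62 FPKM in KO and 98.2 ± 16.6 FPKM in WT livers (adjusted p = 0.716). Akr1d1, a reductase that clears steroid hormones, averaged 66.5 ± 9.24 FPKM in KO and 61.5 ± 9.79 FPKM in WT livers (adjusted p = 0.735). The mineralocorticoid receptor gene Nr3c2, looked up after values were seen, was low at 1.61 ± 0.878 FPKM in KO and 1.74 ± 0.900 FPKM in WT livers.

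Fkbp5 encodes an HSP90 co-chaperone that lowers the receptor's affinity for hormone and is itself induced by the receptor. Its KO libraries had 44.52, 34.19, 58.31, 50.97 and 18.27 FPKM, against 29.73, 20.17, 47.03, 29.35 and 32.38 FPKM in WT. KO replicates 3 and 4 were above every WT library and KO replicate 5 was below every one. Means were 41.3 ± 15.6 FPKM in KO and 31.7 ± 9.72 FPKM in WT livers. The log2 fold change, taken on log values, was 0.32 with an interval of -0.39 to 1.03 (adjusted p = 0.738). The log2 fold change was 0.58 without KO replicate 5, 0.17 without KO replicate 3 and 0.17 without WT replicate 2, with an adjusted p above 0.05 in each case.

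Among 12 other genes of the receptor's chaperone machinery, 1 was above 0, where 34.9% of all genes were, and 11 were below. Their median log2 fold change of -0.06 lay close to the -0.05 of all genes. Many of these estimates were near 0, and 6 of the 12 were above 0 with median-of-ratios scaling and 4 with quantile normalization. Ptges3, a co-chaperone of the hormone-binding receptor complex, averaged 36.2 ± 4.09 FPKM in KO and 42.2 ± 2.41 FPKM in WT livers (adjusted p = 0.267) and was the 1 nominal call of the list. Hsp90aa1, the inducible HSP90, averaged 88.1 ± 13.0 FPKM in KO and 102 ± 26.7 FPKM in WT livers (adjusted p = 0.753).

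Of 15 receptor cofactors, 10 were above 0 and 5 below, where 34.9% of all genes were above 0. Of the 15, 3 had a nominal p under 0.05, where 11.8% of all genes did. Hexim1, a receptor-binding inhibitor of transcription elongation, averaged 19.2 ± 1.71 FPKM in KO and 15.8 ± 2.15 FPKM in WT livers (adjusted p = 0.261). Ppargc1a, the coactivator that drives gluconeogenic genes, averaged 5.40 ± 1.43 FPKM in KO and 3.76 ± 0.569 FPKM in WT livers (adjusted p = 0.285). Ncor1, a corepressor, averaged 41.1 ± 4.66 FPKM in KO and 47.3 ± 2.40 FPKM in WT livers (adjusted p = 0.325).

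Tsc22d3 encodes GILZ, a leucine zipper protein that mediates part of the anti-inflammatory action of glucocorticoids. It had 82.21, 65.37, 93.48, 44.83 and 47.09 FPKM in KO livers, against 48.26, 48.77, 50.35, 18.82 and 38.57 FPKM in WT livers. KO replicates 1 to 3 were above every WT library, while KO replicates 4 and 5 lay among the WT values and WT replicate 4 was the lowest of all. The means were 66.6 ± 21.3 FPKM in KO and 41.0 ± 13.2 FPKM in WT livers. The fold change, taken on log values, was 1.64 with an interval of 1.02 to 2.65. The log2 fold change of 0.72 with a standard error of 0.31 had a nominal p of 0.0428 and an adjusted p of 0.403 by limma, and an exact permutation p of 0.0794. Without WT replicate 4 the log2 fold change was 0.46, against 0.84 without KO replicate 4.

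Dusp1 encodes a phosphatase that switches off the MAP kinases p38 and JNK, and its induction is one way in which glucocorticoids restrain inflammatory signalling. KO libraries had 48.77, 46.51, 57.37, 30.27 and 44.99 FPKM, and WT libraries had 48.18, 20.71, 36.29, 25.39 and 31.08 FPKM. Of the KO libraries, 4 were above 4 of the WT libraries, with WT replicate 1 among the KO values and KO replicate 4 among the WT values. Means were 45.6 ± 9.81 FPKM in KO and 32.3 ± 10.6 FPKM in WT livers. The log2 fold change was 0.52 with an interval of 0.02 to 1.02 (nominal limma p = 0.0431, adjusted p = 0.404, exact permutation p = 0.103). Dusp1 and Ergic1, on the opposite strand, share 11 of the 3311 exon bases of Dusp1.

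Of 19 other MAP kinase phosphatases and early response genes, 4 were above 0, where 34.9% of all genes were, and the median was -0.17. Junb, an AP-1 subunit, averaged 17.8 ± 4.32 FPKM in KO and 25.9 ± 5.89 FPKM in WT livers (adjusted p = 0.274). Atf3, a stress-induced repressor, was near the floor of the test at 0.996 ± 0.258 FPKM in KO and 1.75 ± 0.561 FPKM in WT livers (adjusted p = 0.233). Dusp16, a JNK phosphatase, averaged 11.2 ± 2.51 FPKM in KO and 8.85 ± 0.833 FPKM in WT livers (adjusted p = 0.402). None of the 19 passed the adjusted test. At a nominal p under 0.05, 1 was higher and 3 were lower, where 2.69% and 9.07% of all genes were.

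Sgk1 encodes a serum- and glucocorticoid-induced kinase that acts on ion channels and FOXO factors. RefSeq's promoter table holds 6 windows for Sgk1, and 1 of them contains the palindrome that the receptor binds as a dimer. The sequence below is that window, 250 bases before to 50 after the start, on the plus strand of GRCm38.p6 at chr10:21993640-21993939. Capitals mark the match to GNACANNNTGTNC, which begins 188 bases before the start.

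Sgk1: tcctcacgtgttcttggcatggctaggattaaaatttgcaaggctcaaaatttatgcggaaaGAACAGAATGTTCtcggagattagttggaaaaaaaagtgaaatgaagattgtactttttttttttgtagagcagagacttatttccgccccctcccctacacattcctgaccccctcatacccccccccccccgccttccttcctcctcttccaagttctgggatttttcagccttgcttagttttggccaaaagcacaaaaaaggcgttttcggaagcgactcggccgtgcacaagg

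With the neighbouring base on either side, the match extends to the full palindrome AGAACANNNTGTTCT. Of 32851 promoter windows of this length, 0.475% hold GNACANNNTGTNC and 3 hold the full form, those of Acnat2, Gm35041 and Sgk1. The palindrome reads alike on both strands and contains AGAACA on each, which 19.0% of windows hold. A match of letters does not show that the receptor was bound there in these livers.

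In the expression data Sgk1 had 16.54, 20.83, 19.48, 24.89 and 18.78 FPKM in KO livers and 15.75, 22.68, 11.70, 15.80 and 23.97 FPKM in WT livers. The WT values spread more widely than the KO values and enclosed all but KO replicate 4. Means were 20.1 ± 3.09 FPKM in KO and 18.0 ± 5.18 FPKM in WT livers, with a log2 fold change of 0.19 and an interval of -0.20 to 0.58 (adjusted p = 0.722). It was 0.11 without KO replicate 4, 0.05 without WT replicate 3 and 0.30 without WT replicate 5.

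Of 9 other genes around the SGK kinases, 5 were above 0 and 4 below, where 34.9% of all genes were above 0. Nominal calls were 2 on each side, where 2.69% of all genes were higher and 9.07% lower. Ndrg1, a protein phosphorylated by SGK kinases, averaged 15.0 ± 0.895 FPKM in KO and 11.5 ± 2.15 FPKM in WT livers (adjusted p = 0.219). Scnn1a, the alpha subunit of the epithelial sodium channel, averaged 13.1 ± 1.86 FPKM in KO and 10.5 ± 1.33 FPKM in WT livers (adjusted p = 0.277). Pdpk1, the kinase that activates SGK kinases, averaged 5.12 ± 0.351 FPKM in KO and 6.33 ± 0.692 FPKM in WT livers (adjusted p = 0.233). The related kinase gene Sgk3 averaged 3.75 ± 0.695 FPKM in KO and 5.02 ± 0.687 FPKM in WT livers (adjusted p = 0.250).

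Mt1 and Mt2 encode small cysteine-rich proteins that bind zinc and copper, and both are induced by metals through the factor MTF1 and by glucocorticoids. They lie side by side on chromosome 8, with 5513 bases between the end of Mt2 and the start of Mt1 in the GENCODE annotation. Their RefSeq windows on the plus strand of GRCm38.p6, chr8:94178839-94179138 for Mt1 and chr8:94172368-94172667 for Mt2, are shown because both carry the cores of metal response elements. Capitals mark TGCACNC and TGCGCNC on either strand and, as the first capital run of Mt1, a match to GNACANNNTGTNC.

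Mt1: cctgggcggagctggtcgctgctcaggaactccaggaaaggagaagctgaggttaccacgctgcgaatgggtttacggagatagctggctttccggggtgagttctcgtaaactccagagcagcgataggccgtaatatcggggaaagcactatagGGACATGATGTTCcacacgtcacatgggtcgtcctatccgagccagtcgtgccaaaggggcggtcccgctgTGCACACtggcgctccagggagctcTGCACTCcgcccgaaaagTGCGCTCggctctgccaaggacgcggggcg
Mt2: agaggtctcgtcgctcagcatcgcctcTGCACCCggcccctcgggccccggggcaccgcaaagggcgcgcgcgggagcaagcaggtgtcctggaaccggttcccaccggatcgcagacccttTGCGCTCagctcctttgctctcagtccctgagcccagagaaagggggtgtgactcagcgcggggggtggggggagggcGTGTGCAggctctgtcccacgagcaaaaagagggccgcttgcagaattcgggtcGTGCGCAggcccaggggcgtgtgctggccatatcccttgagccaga

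The Mt1 window holds 3 metal response cores and the Mt2 window holds 4. Either core occurs at least once in 25.7% of the 32851 windows, at least 2 times in 7.11% and at least 4 times in 0.517%. The match in Mt1 to the receptor's palindrome begins 94 bases before the start. Of 9 members looked up in the promoter table, 8 had an entry, with 16 windows in all, and Zbtb16 had none.

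Mt1 had 968.85, 1013.60, 1222.08, 1153.55 and 774.24 FPKM in KO livers, against 868.25, 932.62, 1092.78, 931.36 and 854.47 FPKM in WT livers. Mt2 had 679.22, 567.38, 870.46, 1020.26 and 655.77 FPKM in KO livers, against 593.21, 596.39, 737.17, 685.69 and 513.92 FPKM in WT livers. For both genes KO replicates 3 and 4 were above every WT library, and the other KO libraries lay among or below the WT values. The Mt1 means were 1026 ± 174 FPKM in KO and 936 ± 94.7 FPKM in WT livers. Its log2 fold change was 0.12 with an interval of -0.13 to 0.37 (adjusted p = 0.723). The Mt2 means were 759 ± 183 FPKM in KO and 625 ± 87.2 FPKM in WT livers. Its log2 fold change was 0.26 with an interval of -0.07 to 0.59 (adjusted p = 0.537). Leaving out KO replicate 3, 4 or 5 brought the Mt1 log2 fold change to 0.05, 0.07 or 0.22, and leaving out KO replicate 4 brought that of Mt2 to 0.14.

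The ratio of Mt2 to Mt1 within a library did not differ beyond its spread, at 0.741 ± 0.129 in KO and 0.667 ± 0.0504 in WT livers (SD, n = 5 each, exact permutation p = 0.317). In the annotation an antisense gene, Gm45774, covers 432 of the 588 exon bases of Mt2. The library kit keeps strand, but whether the authors' counting used it is unknown here, so reads of Mt2 and of its antisense partner cannot be told apart.

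Of 12 other genes of metal handling tested, 4 were above 0, close to the 34.9% of all genes, with a median of -0.08. Slc39a8, a zinc and manganese importer, had KO and WT ranges that were apart, as 2.79% of all genes did. It had 9.28 to 10.00 FPKM in KO and 10.18 to 11.60 FPKM in WT livers (adjusted p = 0.287). Slc39a4, a zinc importer, averaged 20.9 ± 1.74 FPKM in KO and 18.6 ± 2.78 FPKM in WT livers (adjusted p = 0.528). Mtf1, looked up after values were seen, averaged 4.52 ± 0.780 FPKM in KO and 4.93 ± 0.724 FPKM in WT livers. The brain and epithelial metallothioneins Mt3 and Mt4 are listed at 0 in all 10 libraries.

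Zbtb16 and Cdkn1a were the members that varied most from library to library. Zbtb16 encodes PLZF, a zinc finger repressor that is strongly induced by glucocorticoids in many cells. It had 18.22, 11.06, 18.47, 14.96 and 1.15 FPKM in KO livers, against 21.96, 6.38, 8.54, 1.74 and 1.02 FPKM in WT livers. The highest KO library was 16.1 times the lowest, and the highest WT library 21.5 times the lowest. The means were 12.8 ± 7.16 FPKM in KO and 7.93 ± 8.45 FPKM in WT livers. The log2 fold change, taken on log values, was 0.89 with a wide interval of -1.19 to 2.98 (adjusted p = 0.749). It was 1.55 without KO replicate 5, 1.40 without WT replicate 1, 0.57 without WT replicate 4 and 0.43 without WT replicate 5.

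Cdkn1a encodes p21, an inhibitor of cyclin-dependent kinases that p53 and glucocorticoids both induce. Its values were 131.24, 57.91, 106.37, 65.09 and 16.33 FPKM in KO livers and 91.64, 62.99, 79.47, 12.64 and 14.52 FPKM in WT livers. KO replicate 5 and WT replicates 4 and 5 were low, at 12.64 to 16.33 FPKM, and the other 7 libraries had at least 57.91 FPKM. Means were 75.4 ± 44.7 FPKM in KO and 52.3 ± 36.7 FPKM in WT livers, with a log2 fold change of 0.66 and an interval of -1.06 to 2.38 (adjusted p = 0.774). The log2 fold change was 0.39 without KO replicate 1, 1.13 without KO replicate 5, 0.27 without WT replicate 4 and 0.31 without WT replicate 5. A transcript of unknown coding status on the opposite strand shares 273 of the 3553 exon bases of Cdkn1a.

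The same 3 libraries were the lowest for Zbtb16, at 1.02 to 1.74 FPKM against at least 6.38 FPKM in the other 7. With these 3 libraries left out, a choice made after their values were seen, the log2 fold change of Cdkn1a was 0.14 and that of Zbtb16 was 0.51. In that comparison of 4 KO with 3 WT libraries, 8 of 10 members were above 0, none had a nominal p under 0.05, and Tsc22d3 stood at 0.48 (adjusted p = 0.609) and Fkbp5 at 0.59 (adjusted p = 0.635).

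**Figure D2:**
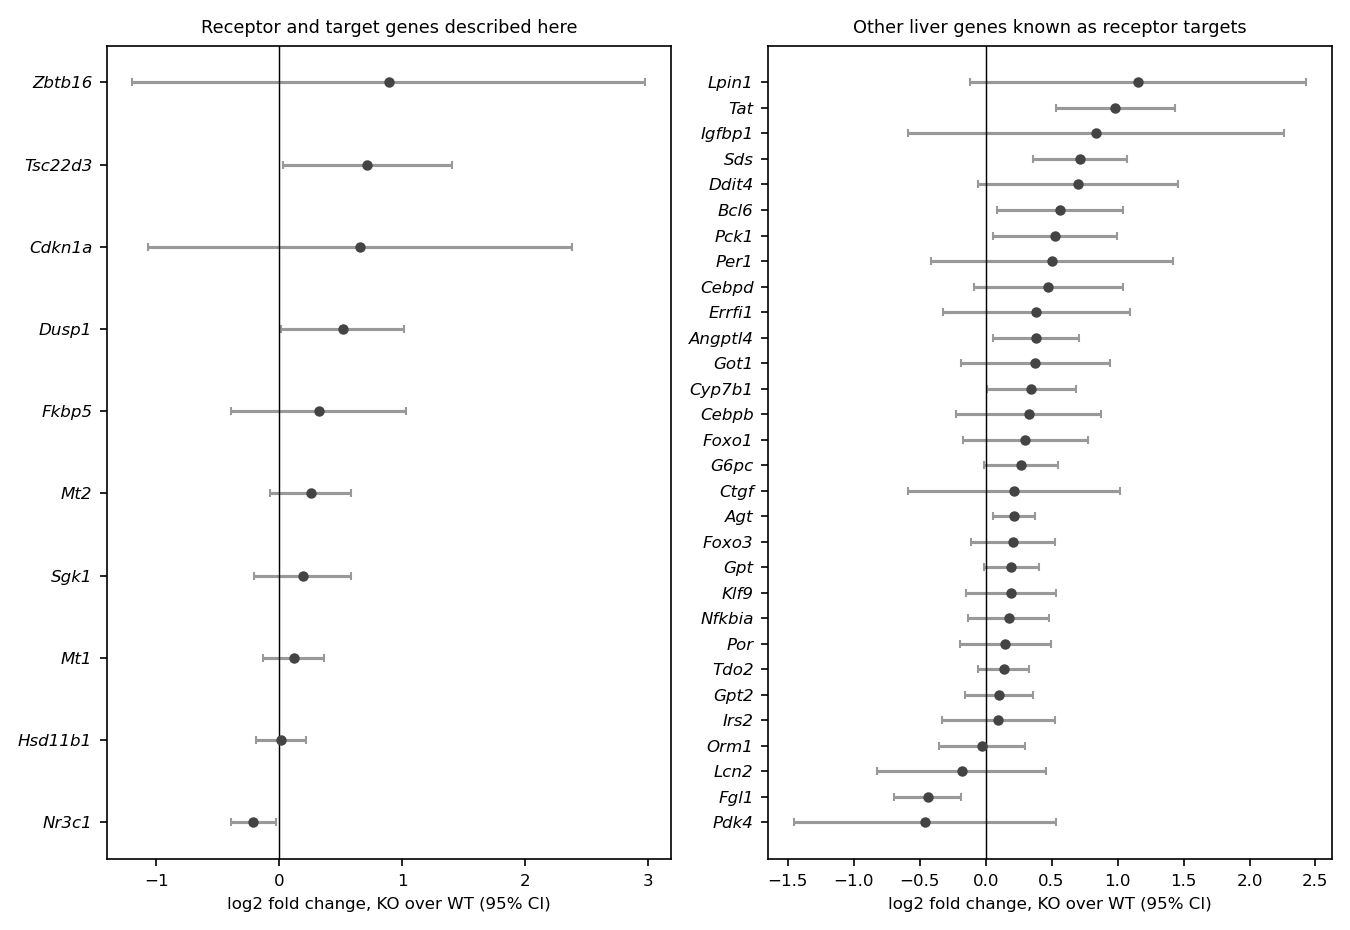
Log2 fold change of KO over WT (horizontal axis) with 95% confidence intervals for the 10 members (left) and 30 other liver genes known as receptor targets (right), each panel sorted by the estimate. The interval of Zbtb16 runs from -1.19 to 2.98, and that of Nr3c1 lies below 0.

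Of 18 other p53 targets and CDK inhibitors, 6 were above 0, a share close to the 34.9% of all genes, and the median was -0.14. Nominal calls were 5 lower and 1 higher, where 9.07% and 2.69% of all genes were. Ccng1, Aen and Bax had ranges that were apart, as 2.79% of all genes did. Ccng1, which encodes the p53-induced cyclin G1, had 11.89 to 14.39 FPKM in KO and 14.54 to 21.94 FPKM in WT livers (log2 fold change -0.45, adjusted p = 0.140). Aen, a p53-induced nuclease, had 4.15 to 5.43 FPKM in KO and 5.81 to 8.10 FPKM in WT livers (log2 fold change -0.46, adjusted p = 0.143). Gdf15, a stress cytokine, averaged 8.58 ± 2.43 FPKM in KO and 14.0 ± 3.67 FPKM in WT livers (adjusted p = 0.233). The nominal call on the higher side was Gadd45g, a stress-inducible growth arrest gene, at 60.9 ± 23.6 FPKM in KO and 30.8 ± 9.12 FPKM in WT livers (log2 fold change 0.94, adjusted p = 0.207).

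Liver genes outside the membership that were listed as glucocorticoid receptor targets leaned upward as the members did. The list was chosen with earlier results of these data known, so its counts are a description. Of 30 such genes, 26 were above 0, where 34.9% of all genes were, and their median log2 fold change was 0.29. At a nominal p under 0.05, 7 were higher and 1 was lower, where 2.69% and 9.07% of all genes were, and none passed the adjusted test, with 0.126 as the lowest adjusted p. Tat, the tyrosine aminotransferase long used as a marker of hepatic glucocorticoid action, had 1484.19, 842.59, 1036.78, 741.62 and 621.24 FPKM in KO livers. Its WT libraries had 442.92, 475.60, 443.31, 377.68 and 557.57 FPKM, all below the KO libraries.

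Sds, the serine dehydratase of amino acid breakdown, also had ranges that were apart, as 2.79% of all genes did. It had 234.03 to 336.66 FPKM in KO and 118.83 to 231.03 FPKM in WT livers (log2 fold change 0.71, adjusted p = 0.140). Agt, the angiotensinogen gene, averaged 723 ± 60.0 FPKM in KO and 623 ± 42.7 FPKM in WT livers (adjusted p = 0.258). Fgl1, an acute phase product of hepatocytes and 1 of the 4 genes below 0, stood at 304 ± 43.0 FPKM in KO and 413 ± 65.2 FPKM in WT livers (adjusted p = 0.178). Some of these genes answer to glucagon, insulin, cytokines and the clock as well. Where 34.9% of all genes were above 0, with a median of -0.05, the 7 hepatocyte markers measured were likewise all above 0, with a median of 0.13. The macrophage markers were below 0 in 7 of 8, with a median of -0.11. So were 7 of 8 stellate cell and fibroblast markers, 5 of 6 lymphocyte markers and 4 of 8 endothelial markers. Their part in the list's values was not tested.

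In the transcription factor families of Tsc22d3 and Zbtb16, 4 of 7 other genes were above 0, where 34.9% of all genes were, and the median was 0.03. With median-of-ratios scaling 5 of the 7 were above 0, where 49.8% of all genes were. With quantile normalization 6 of the 7 were, where 48.3% of all genes were. Bcl6, a repressor related to Zbtb16 and also counted among the liver targets, averaged 4.50 ± 1.83 FPKM in KO and 2.76 ± 0.612 FPKM in WT livers (adjusted p = 0.324). Tsc22d2 and Tsc22d4, relatives of GILZ, had adjusted p-values above 0.5 in this comparison.

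**Figure D3:**
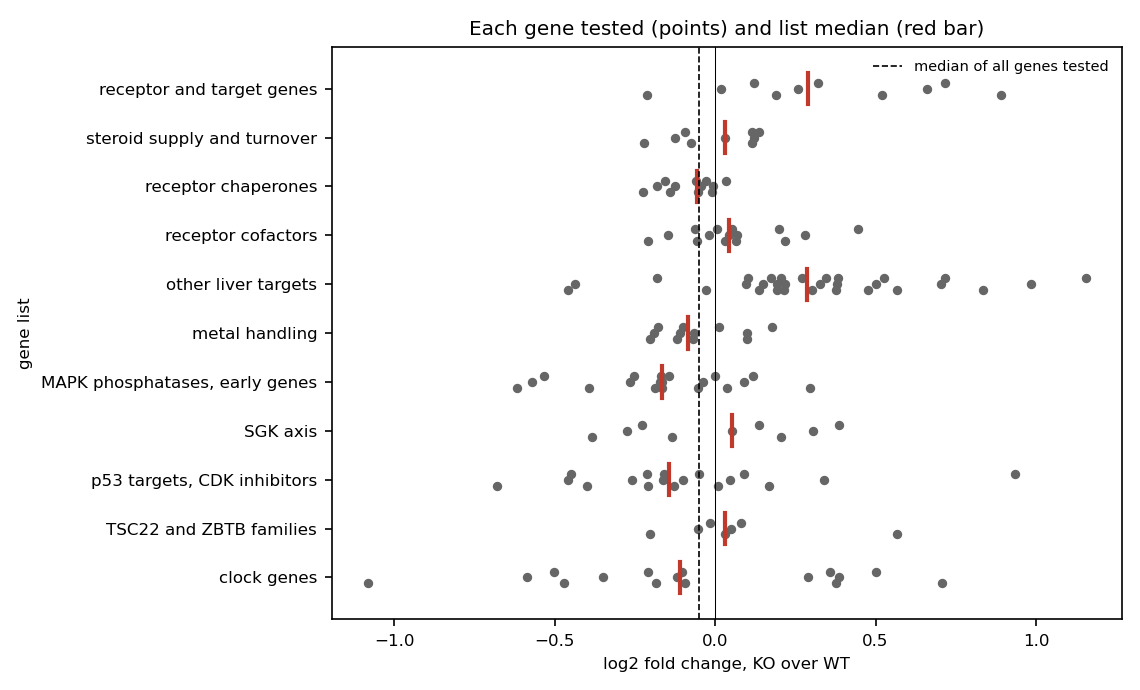
Log2 fold change of KO over WT (horizontal axis) for every gene tested in the member list and in 10 related lists without the members (points), with each list's median as a red bar and the median of all genes tested, -0.05, as a dashed line. The members and the other liver targets have medians of 0.29, and the other lists lie between -0.17 and 0.05.

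Whether members varied together across libraries was asked on values with each genotype's mean removed, so that the genotype difference plays no part. Of 45 pairs of members, 23 had a correlation above 0, and 1 pair, Zbtb16 with Cdkn1a, passed a permutation test adjusted over the 45 (100000 resamples within genotype, adjusted p = 0.0211 for Pearson's r and 0.0288 for Spearman's rho). Because both genes split the libraries into the same 3 low and 7 high ones, no pooled coefficient is given. Within the 7 higher libraries, re-centred by genotype, r was 0.65 and rho 0.68 (exact permutation p = 0.0278 for each, adjusted p = 0.130 and 0.139 over 15 relations). With 144 arrangements the smallest p is 0.00694, so in this smaller set no relation could pass the adjustment on its own.

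Other pairs did not pass. Tsc22d3 and Cdkn1a had r = 0.78 and rho = 0.73 (permutation p = 0.00476 and 0.0289, adjusted p = 0.107 and 0.354). Their r was 0.91 without KO replicate 4 and WT replicate 4. Within the 7 libraries of higher Cdkn1a their r was 0.69 and rho 0.82 (exact permutation p = 0.264 and 0.319, adjusted p = 0.360 and 0.399). Fkbp5 and Mt1 had r = 0.84 and rho = 0.60 (permutation p = 0.0117 and 0.102, adjusted p = 0.175 and 0.354), and r stayed at 0.84 without KO replicate 5 and WT replicate 2. Nr3c1 and Tsc22d3 had r = -0.71 and rho = -0.82 (permutation p = 0.0397 and 0.0130, adjusted p = 0.431 and 0.292), and r was -0.66 without KO replicate 4 and WT replicate 3. The neighbours Mt1 and Mt2 had r = 0.70 and rho = 0.72 (permutation p = 0.0574 and 0.0377, adjusted p = 0.431 and 0.354), with 0.77 without KO replicates 3 and 5.

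**Figure D4:**
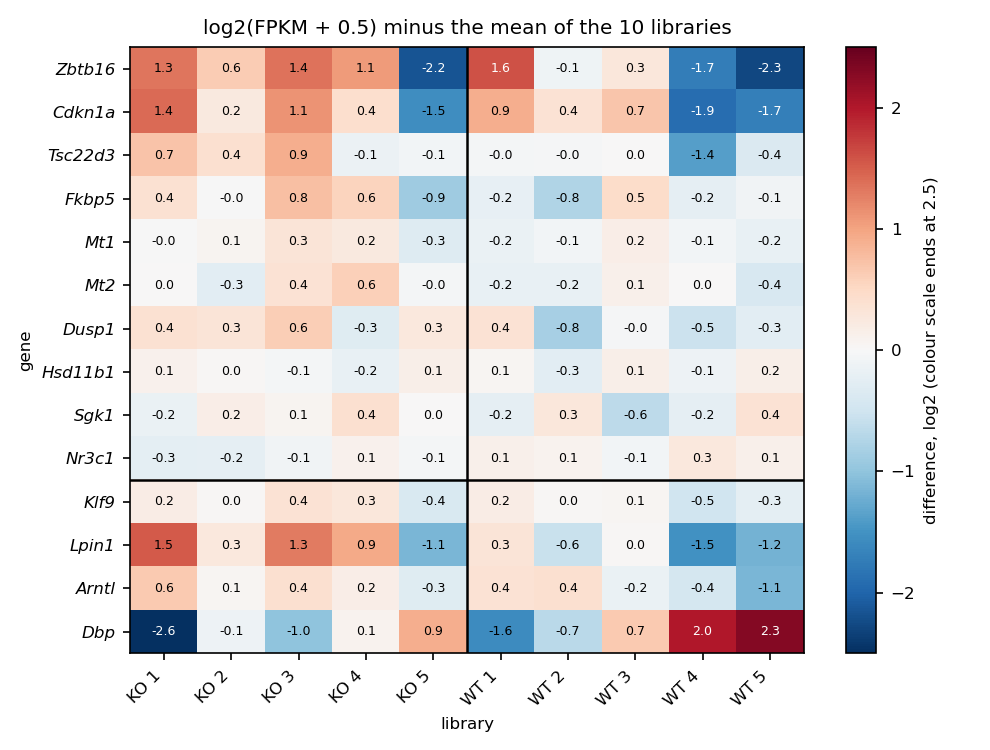
Differences of log2(FPKM + 0.5) from the mean of the 10 libraries (colour and printed number) for the 10 members and, below the line, Klf9, Lpin1, Arntl and Dbp (rows), with KO libraries left of the line and WT libraries right of it (columns). KO replicate 5 and WT replicates 4 and 5 are low for Zbtb16, Cdkn1a, Klf9, Lpin1 and Arntl and high for Dbp.

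The same 3 libraries were the lowest for 97 of the genes tested, a small share of 0.783% that is not by itself a result about these libraries. Besides Cdkn1a and Zbtb16 the 97 included the liver targets Klf9 and Lpin1, the clock activator Arntl and the translation factor gene Eif1a. In another 370 of the 12395 genes tested, more than the 97, these 3 libraries were the highest. Genes that put any other 3 libraries together were not counted, so neither number is a result about these 3. Among the 370 were the clock output genes Dbp and Tef and the clock repressors Per3 and Cry2, and no other clock gene tested. Per1, for one, did not follow this split. It was lowest of all in WT replicate 4 at 2.06 FPKM and highest of all in WT replicate 5 at 13.61 FPKM. These examples, other than Lpin1 and Eif1a, were chosen after their values were seen.

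Dbp, whose liver transcript swings strongly over the day, had 1.13, 8.25, 4.24, 9.59 and 17.33 FPKM in KO livers and 2.71, 5.50, 14.50, 37.91 and 46.24 FPKM in WT livers. Arntl, which peaks at another time of day, had 9.42, 6.08, 7.85, 6.57 and 4.63 FPKM in KO livers and 7.62, 7.89, 5.13, 4.19 and 2.37 FPKM in WT livers. Lpin1, a phosphatidate phosphatase induced by glucocorticoids, had 86.72, 35.48, 73.15, 57.58 and 13.20 FPKM in KO livers and 37.20, 19.99, 30.14, 10.08 and 12.86 FPKM in WT livers. The libraries with the most Dbp were thus those with the least Cdkn1a, Zbtb16 and Lpin1.

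Of 160 pairs of a member and a clock gene, 22 had a nominal permutation p under 0.05 and none passed after adjustment, with 0.137 as the lowest adjusted p. Within the 7 libraries of higher Cdkn1a, Cdkn1a and Dbp had r = -0.75 and rho = -0.61 (exact permutation p = 0.104 and 0.167, adjusted p = 0.223 and 0.312). Between genotypes the clock genes did not pass the test: 6 of 16 were above 0, close to the 34.9% of all genes, with a median of -0.11. Without the 3 libraries of low Cdkn1a 9 of 16 were above 0 with a median of 0.02, and without WT replicate 2 the median was -0.23. Nr1d2, a clock repressor, averaged 11.4 ± 2.55 FPKM in KO and 16.3 ± 4.10 FPKM in WT livers (adjusted p = 0.319), and Cry1, another repressor, averaged 4.51 ± 1.32 FPKM in KO and 3.27 ± 0.330 FPKM in WT livers (adjusted p = 0.367). The part of collection time in the members' values was not tested.

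**Figure D5:**
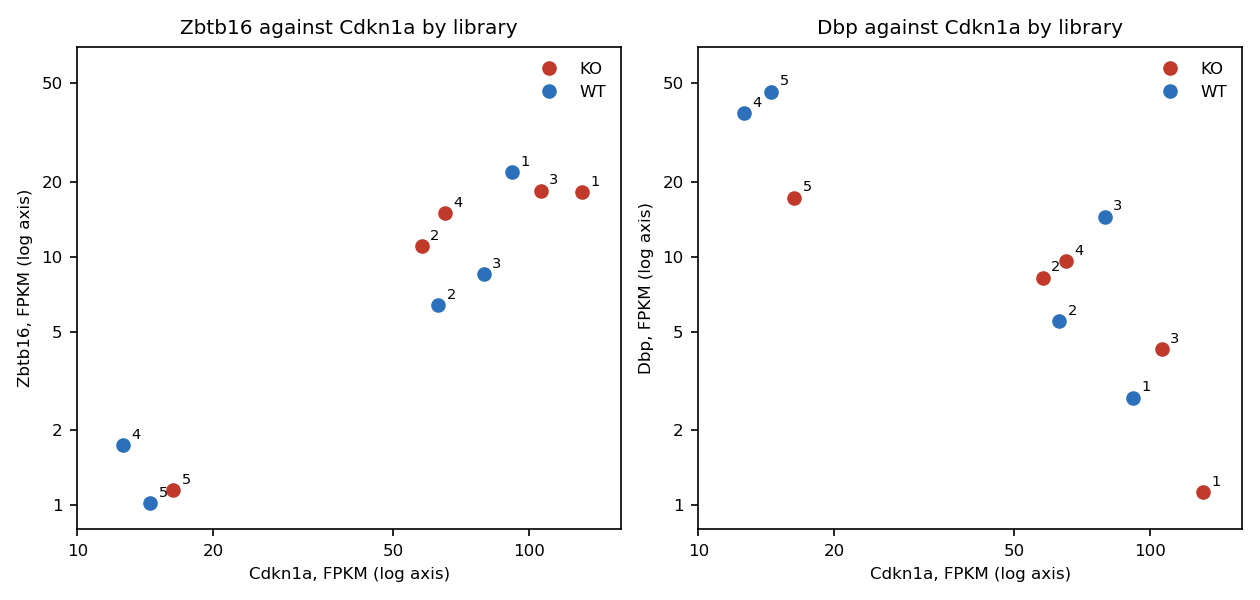
Zbtb16 (left panel) and Dbp (right panel) against Cdkn1a, in FPKM on log axes, for 5 KO libraries (red) and 5 WT libraries (blue), numbered by replicate. KO replicate 5 and WT replicates 4 and 5 stand apart at 12.64 to 16.33 FPKM of Cdkn1a, with the lowest Zbtb16 and the highest Dbp.

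The genes whose pattern over the 10 libraries was most like each member's, again with genotype means removed, were picked by rank among all genes of at least 1 FPKM, so their coefficients carry no test. For Nr3c1 they were Ppp1r12a (r = 0.95), Ints7 (0.94) and Tbc1d5 (0.93). For Fkbp5 they were Mtss1 (r = 0.95), Atrip (0.95) and Pfkfb2 (0.94), and for Tsc22d3 they were Klf3 (r = 0.92), Herpud1 (0.92) and Rgs16 (0.90). Sgk1 had Btg3 (r = 0.98), Zbtb45 (0.95) and Ddx39b (0.94), and Dusp1 had Rcan2 (r = 0.95), Adnp2 (0.93) and Elovl6 (0.92).

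The metallothioneins had different neighbours: Mt1 had Etnk2 (r = 0.96), Ifih1 (0.94) and Map3k5 (0.92), and Mt2 had Odf2l (0.94), Cast (0.94) and Usp8 (0.91). Etnk2 encodes an ethanolamine kinase, which makes the phosphoethanolamine that Etnppl breaks down. Hsd11b1 had Ctsh (r = 0.96), Cbr1 (0.95) and Acadm (0.94). For Zbtb16 the rule gave Eif1a, Cdkn1a and Lpin1, with r of 0.70, 0.65 and 0.78 within the 7 higher libraries. For Cdkn1a it gave Eif1a, Zbtb16 and Rgs16, with r of 0.73, 0.65 and 0.89 there.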

How the data were processed

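Liver RNA of 5 KO and 5 WT samples was measured by poly(A) RNA sequencing. The deposited values are FPKM per gene, rounded by the authors to 2 decimals. The submitters' processing notes name RSEM, STAR, DESeq, DESeq2 and R 4.0.2, with build mm10. Which of them did what, with which filters and strand setting, is unknown here. Since FPKM is relative to a library's total, abundant transcripts can shift the rest. No raw counts were used, so no count model was fitted.

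The test was limma 3.58.1 in R 4.3.3 with a trend and a robust prior, two-sided, on log2(FPKM + 0.5). It covered 12395 genes whose mean reached 0.5 FPKM, with p-values adjusted over all of them by Benjamini-Hochberg at a threshold of 0.05. Fold changes are differences of the group means of log2(FPKM + 0.5), so they need not match the ratio of the FPKM means. The pseudocount makes fold changes of low genes too small. Intervals are 95% confidence intervals. Exact permutation tests covered all regroupings of 5 against 5 libraries. A gene is called above or below 0 by its estimate alone, and nominal means an unadjusted p under 0.05. The test was tried on simulated data with known changes.

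Depth was estimated by finding the number of fragments at which low FPKM values become whole, within 0.1 fragment for 94.3% to 97.1% of the values. No 2 libraries shared more than 0.823% of their values.

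Likeness is Pearson's r over the 10 libraries after each genotype's mean was removed, among genes averaging 1 FPKM or more. Relations over 7 libraries used all 144 arrangements within genotype. Genes named are the members, Etnppl, up to 4 genes of lowest p in each list and 3 genes of highest likeness per member, passing over model names. Genes outside this rule, such as Dbp, Klf9, Arntl, Bax, Mtf1 and Nr3c2, were chosen after their values were seen. The members and lists were chosen with earlier results of these data known.

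Alternatives tried were a pseudocount of 0.1 or 1, dropping the filter or raising it to 2 FPKM, scaling by median of ratios, quantile normalization, rescaling to a fixed sum (TPM), limma without trend or robust prior, the replicate number as a block and each library left out in turn. Leaving out 3 libraries together was added after seeing the data. Promoter windows are from RefSeq (GRCm38.p6), and gene overlaps from GENCODE M21 (GRCm38). Figures used Python 3.11.15 and matplotlib 3.10.9.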

Additional observations from a re-analysis of the deposited data

Results flagged for a closer look

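In groups of 5 libraries, a library was noted where its gap to the nearest value exceeded 0.71 of the group's whole range. Of 102 groups, from 51 genes in both genotypes, 2 were noted, and none of the 20 groups of the members was among them. In unselected values chance alone flags about 1 in 20. Most of these genes were picked by the lowest p in their list, so that rate need not hold here. Ncor1, the corepressor, was lowest in KO replicate 2 at 32.98 FPKM, with 41.92 FPKM as the next value and 44.88 FPKM as the highest of that genotype. Without that library its log2 fold change was -0.13, and its adjusted p stayed above 0.05. Slc30a7, a zinc transporter of the secretory pathway, was highest in WT replicate 4 at 7.79 FPKM, with 5.63 FPKM as the next value and 5.09 FPKM as the lowest. Without that library its log2 fold change was -0.10.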

How the results depend on the processing

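No member passed the adjusted test under any of the 19 alternatives or with the 3 libraries of low Cdkn1a left out. Nominal calls among the members ranged from 0, without KO replicate 1, WT replicate 4 or WT replicate 5 and without the 3 libraries, to 4. Over all genes 8 calls were made. This became 5 with no filter, with no trend or robust prior, with the replicate block and with the 3 libraries left out, and 4 to 18 with 1 library left out. It was 18 without WT replicate 2, 4 without KO replicate 2, WT replicate 1 or WT replicate 5, and 5 without KO replicate 1, KO replicate 3, WT replicate 3 or WT replicate 4. Hsd11b1 was the member whose sign turned: its log2 fold change lay between -0.047, without WT replicate 2, and 0.067, without KO replicate 4, with 1 library left out, and was -0.0033 with the 3 left out. The causes were not tested. The other members kept their sign in every alternative run. Same-numbered KO and WT samples deviated from their group means with r of -0.03 to 0.20. Samples of different number were not compared and the labels state no pairing, so these values cannot decide whether the numbers pair samples. With the replicate block, 4 members had a nominal p under 0.05, Mt2 besides Nr3c1, Tsc22d3 and Dusp1, and none passed the adjusted test, while Gadd45g among the other genes did (adjusted p = 0.0180). With 5 libraries a group, spread between libraries limits what can be seen. The interval of Zbtb16 spans over 4 units of log2, and that of Nr3c1 under 0.4. For Zbtb16 the highest library was 16.1 times the lowest in KO and 21.5 times in WT, against 1.28 and 1.27 for Nr3c1. The part of depth was not tested.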
